A study of Mus musculus with 12 samples.

Results

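The sialyl-, fucosyl- and galactosyltransferases are the Golgi enzymes that add sialic acid, fucose and galactose to the glycans of lipids and proteins. Genes were taken as members when their symbol began with St3gal, St6gal, St8sia, B3gal, B4gal or B3gnt followed by its number or ending, or was Fut followed by a number alone. The rule found 56 of the 24531 genes. Of these, 21 symbols began with St, 27 with B3g or B4g and 8 with Fut. The B3galnt, B4galnt and B3gnt members transfer N-acetylgalactosamine or N-acetylglucosamine, and St8sia3os is an antisense transcript of St8sia3.

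Polyadenylated RNA was sequenced from the amygdala of male WT mice of 129S1/SvImJ (S1), which the study describes as impaired in fear extinction, and of C57BL/6 (B6). Tissue came from the basolateral amygdala (BLA) or the central amygdala, labelled CeA on the samples and CEm in the design text. The animals were untrained (naive), had undergone fear conditioning (FC) or had gone on to extinction (Ext). There were 12 libraries of 42224899 to 61695302 counts, 1 per strain, region and condition, and the number of mice in a library is not stated. No group had a replicate, so each p-value here measures the spread of these libraries around an additive model and not the spread between mice.

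Glycans are built by enzymes acting in sequence, each adding 1 sugar to what the enzyme before it left. In the brain, sialic acid is carried mostly on gangliosides, which are sialylated glycolipids of the neuronal membrane. Their synthesis starts from glucosylceramide, passes through lactosylceramide and GM3, and branches into series that differ in the number and position of sialic acids. Polysialic acid on the adhesion molecule NCAM and fucosylated Lewis structures are other brain glycans that members of these families complete.

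Most differences followed region, among the members as among all genes. In naive and FC libraries, 17 of 50 tested members were higher and 8 lower in BLA than in CeA, where 23.2% of all genes tested were higher and 23.4% lower. Of 11 members grouped as ganglioside enzymes, after their values had been seen, 10 were higher in BLA. Between strains, 3 members were higher and 8 lower in S1 than in B6, where 12.4% of all genes were higher and 10.4% lower. Fut10 was 3.47-fold lower in S1, and B3gnt3, at under 1 CPM (counts scaled by the library's total), 3.94-fold lower. Calls in either direction, 25 of 50 members for region and 11 of 50 for strain, lay near the share of all genes, 46.6% for region and 22.8% for strain. Conditioning changed none past the threshold as a main effect, but the difference of B4galt2 between FC and naive libraries was not the same in both regions.

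The promoters of 3 members on which these results turn are shown here, as RefSeq gives them for GRCm38.p6, from 250 bases before to 50 bases after an annotated start. RefSeq promoters were at hand for 40 of the 56 members. B3galt2 is shown for its region difference, B4galt2 for its difference between FC and naive libraries, and B3galt5 for a pair of starts that libraries used unequally. Capitals mark the letters GGGCGG (a GC box), CACGTG (an E-box) and TGACGT (the core of the cyclic AMP response element), searched on both strands, where a reverse match is written as its own letters. Those letters are in 35.7%, 7.15% and 7.51% of all 32851 RefSeq promoters of this length, in that order.
B3galt2, chr1:143640447-143640746, plus strand: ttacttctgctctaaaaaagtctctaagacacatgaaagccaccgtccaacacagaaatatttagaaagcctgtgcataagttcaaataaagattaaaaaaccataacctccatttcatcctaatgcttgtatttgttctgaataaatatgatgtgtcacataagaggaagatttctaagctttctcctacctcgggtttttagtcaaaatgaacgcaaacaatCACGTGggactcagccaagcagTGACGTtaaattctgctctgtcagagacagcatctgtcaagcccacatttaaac
B4galt2, chr4:117883427-117883726, minus strand: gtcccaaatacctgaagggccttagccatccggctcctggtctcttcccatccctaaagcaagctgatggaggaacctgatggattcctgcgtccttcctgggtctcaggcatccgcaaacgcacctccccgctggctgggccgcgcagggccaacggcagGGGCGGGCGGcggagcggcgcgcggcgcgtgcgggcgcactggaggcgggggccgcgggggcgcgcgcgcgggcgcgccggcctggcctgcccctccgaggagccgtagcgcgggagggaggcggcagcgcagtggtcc
B3galt5 upstream start, chr16:96235551-96235850, plus strand: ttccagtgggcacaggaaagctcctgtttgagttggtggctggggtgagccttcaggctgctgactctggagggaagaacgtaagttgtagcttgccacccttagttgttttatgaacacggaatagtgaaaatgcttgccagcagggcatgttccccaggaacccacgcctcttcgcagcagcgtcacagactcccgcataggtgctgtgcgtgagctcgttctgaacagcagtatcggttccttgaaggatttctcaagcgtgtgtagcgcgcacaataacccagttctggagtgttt
B3galt5 downstream start, chr16:96280782-96281081, plus strand: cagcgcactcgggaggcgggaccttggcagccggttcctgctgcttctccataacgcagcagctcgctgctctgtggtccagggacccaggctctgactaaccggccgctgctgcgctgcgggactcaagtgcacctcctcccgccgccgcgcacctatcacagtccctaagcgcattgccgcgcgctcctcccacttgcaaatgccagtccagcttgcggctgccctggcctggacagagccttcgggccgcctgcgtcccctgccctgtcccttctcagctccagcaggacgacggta

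The B3galt2 window held 1 E-box and 1 such core and was 37.7% G or C, against a median of 52.7% over all promoters. The B4galt2 window held 2 overlapping GC boxes and was 73.7% G or C. The B3galt5 windows printed held none of these letters and were 53.0% G or C at the upstream start and 67.3% at the downstream start. RefSeq also gives a B3galt5 window between these, at a start that no counted transcript used, which held 1 E-box and was 47.3% G or C. A match is a description of the letters and not a binding site.

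Levels between genes were compared in FPKM, the authors' read number scaled for transcript length and library size. Of the 56 members, 40 had a mean FPKM over 1 and 15 a mean over 10. The highest was B4galnt1, the GM2 and GD2 synthase, with a mean of 56.6 FPKM and a range of 41.9 to 72.0 over the 12 libraries. St3gal5, the GM3 synthase, averaged 49.0 FPKM with a range of 34.0 to 66.3. St6galnac6, which makes alpha-series gangliosides, averaged 43.1 FPKM with a range of 34.4 to 51.2.

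St6galnac5, which also makes alpha-series gangliosides, came next with a mean of 39.0 FPKM and by far the widest range of these 5 genes, 6.61 to 70.3. B4galnt4, which adds N-acetylgalactosamine to form LacdiNAc on glycoproteins, followed with a mean of 38.2 FPKM and a range of 32.4 to 41.9. Neighbours in this order overlapped in their ranges. Of these 5 members, 4 were in the ganglioside group. By BLA libraries alone the 5 were the same genes, with St6galnac5 first at a mean of 67.9 FPKM. By CeA libraries alone St8sia3, at a mean of 39.4 FPKM, took the place of St6galnac5, and 3 of the 5 were in the group.

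**Figure D1:**
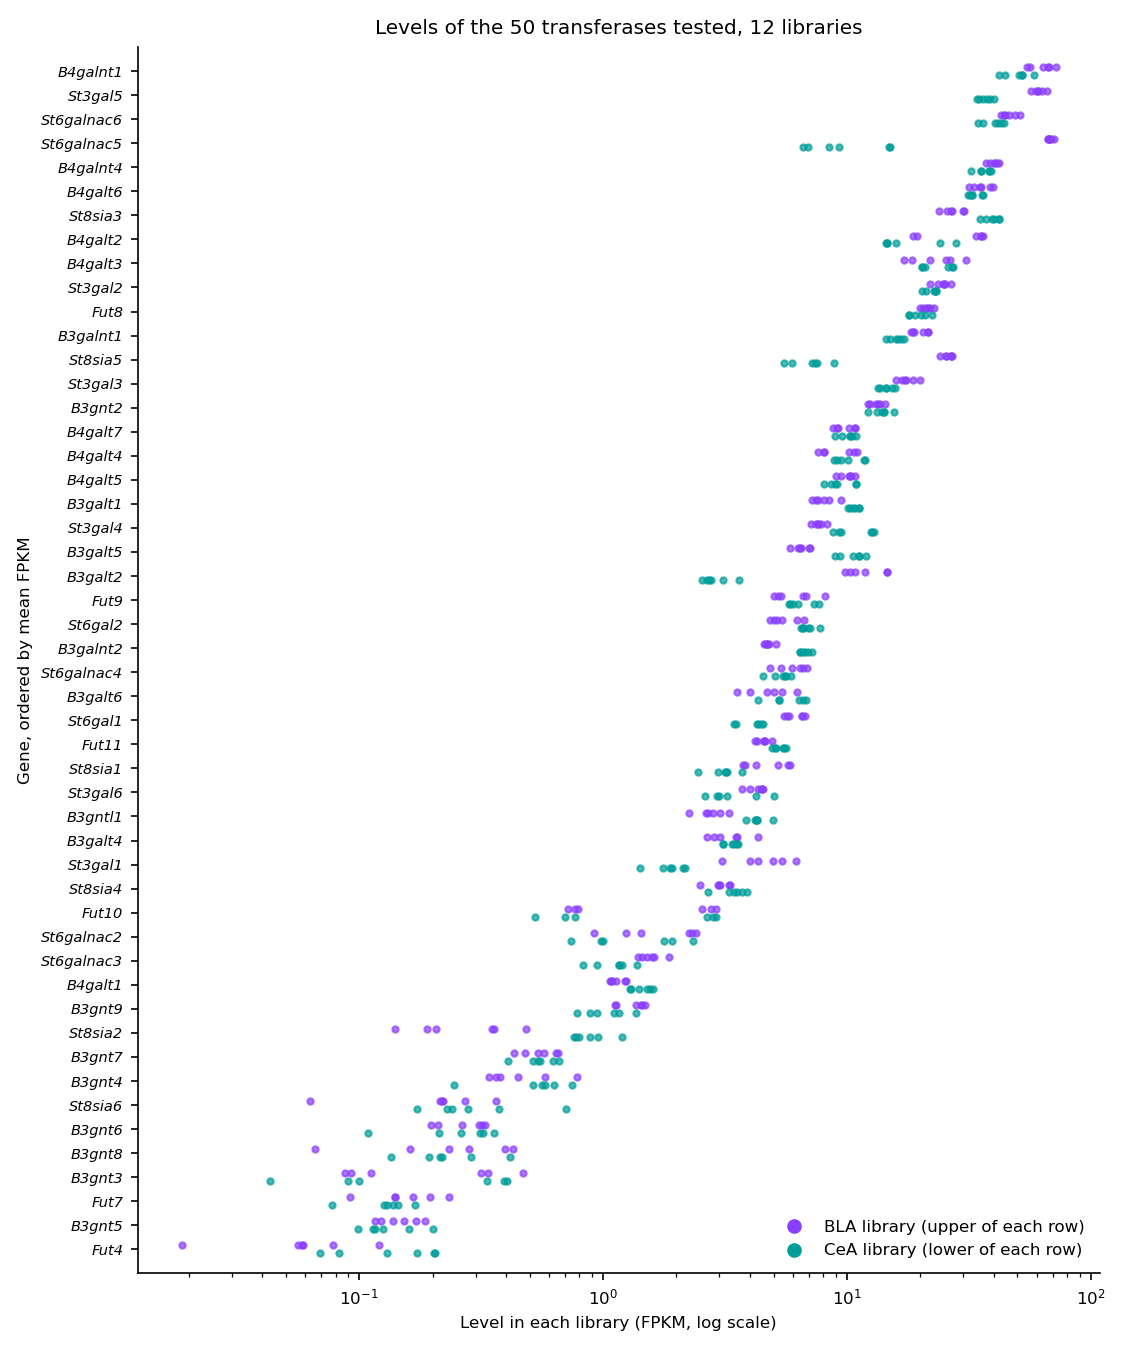
FPKM on a log scale of the 50 members tested, ordered by mean FPKM, with 6 BLA libraries drawn above 6 CeA libraries in each row. The BLA and CeA points of St6galnac5, St8sia5 and B3galt2 stand apart, while most other rows overlap or lie side by side.

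At the other end, B4galnt2 and St8sia3os were at 0 in all 12 libraries, where 3 counts, the floor used here, equal 0.0486 to 0.071 CPM. B4galnt3, Fut1, Fut2 and St6galnac1 also failed the filter on low counts, which left 50 members tested. Fut1 and Fut2 make the H antigen, and St6galnac1 makes sialyl-Tn on mucin-type glycans. Another 8 tested members had a mean under 1 CPM. They were B3gnt3, B3gnt4, B3gnt5, B3gnt6, B3gnt8, Fut4, Fut7 and St8sia6.

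Region was compared as BLA minus CeA in the 8 naive and FC libraries. Of the 50 tested members, 17 were higher and 8 lower, where 23.2% of all 16274 genes tested were higher and 23.4% lower. The median log2 difference was 0.15 over the members and -0.01 over all genes. Limma on the deposited FPKM (log2 of FPKM plus 1) called 14 members higher and 10 lower. On that scale the median over all genes was -0.08, so these counts cannot be set against the shares above. Of the 25 edgeR calls, 22 held when any 1 library was left out, 16 of them higher and 6 lower in BLA. CPM values below are scaled by edgeR's TMM factors, and adjusted p is from edgeR's quasi-likelihood test with Benjamini-Hochberg adjustment over all genes tested.

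St6galnac5 showed the largest region difference. It lies on chromosome 3 at 152820710 to 152982207 (mm10). In BLA it had 151, 142 and 140 CPM in naive, FC and Ext S1 libraries and 141, 145 and 139 CPM in those of B6. Its CeA libraries had 16.9, 30.3 and 13.6 CPM in S1 and 28.7, 18.1 and 13.0 CPM in B6. The 6 BLA libraries were nearly level, while the CeA libraries varied among themselves and all lay far below. Before extinction it was 6.16-fold higher in BLA (log2 difference 2.62 ± 0.20 SE, adjusted p = 2.27e-05, 4 of 4 matched pairs).

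St8sia5, which adds further sialic acids to complex gangliosides, followed the same division. In BLA it had 59.3, 58.5 and 56.7 CPM in naive, FC and Ext S1 libraries and 55.0, 54.8 and 51.2 CPM in those of B6. The CeA libraries held 14.8, 18.4 and 14.9 CPM in S1 and 15.0, 11.9 and 11.1 CPM in B6. It was 3.81-fold higher in BLA (log2 difference 1.93 ± 0.10 SE, adjusted p = 4.82e-06, 4 of 4 pairs), and no CeA library came near a BLA library.

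St3gal5, whose product GM3 is the first ganglioside of the route, was 1.76-fold higher in BLA (log2 difference 0.81 ± 0.05 SE, adjusted p = 8.39e-06, 4 of 4 pairs). It had 146, 138 and 150 CPM in naive, FC and Ext S1 BLA and 148, 147 and 157 CPM in B6 BLA. CeA libraries had 77.9, 79.8 and 80.8 CPM in S1 and 88.5, 83.2 and 86.1 CPM in B6. Its locus on chromosome 6, at 72097608 to 72154570 (mm10), overlaps the non-coding gene 4933431G14Rik, and strand use in the counting is not given in the sources used here.

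St8sia1, the GD3 synthase, was 1.84-fold higher in BLA (log2 difference 0.88 ± 0.09 SE, adjusted p = 0.000139, 4 of 4 pairs). It had 56.6, 55.0 and 35.7 CPM in naive, FC and Ext S1 BLA and 49.5, 40.3 and 34.9 CPM in B6 BLA. In CeA it had 28.9, 33.9 and 28.5 CPM in S1 and 25.7, 21.3 and 27.8 CPM in B6. The Ext libraries thus had the smallest gap, with a log2 difference of 0.34 ± 0.07 SE, and whether the gap itself changed was not tested. B4galnt1 was 1.37-fold higher in BLA (log2 difference 0.45 ± 0.05 SE, adjusted p = 0.000189), with 138 to 176 CPM in the 6 BLA libraries and 99.0 to 133 CPM in the 6 CeA libraries.

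The other ganglioside enzymes differed less. St3gal3 and St3gal2, which cap complex gangliosides, had log2 differences of 0.35 and 0.31. St6galnac6 had 0.33. B4galt5 and B4galt6, the lactosylceramide synthases, had 0.27 and 0.23. All of these passed the threshold. The exception among the 11 was B3galt4, the GM1 synthase, at -0.06 with 4.52 to 7.09 CPM in BLA and 4.80 to 5.52 CPM in CeA. These 11 genes were grouped by the step they are known to catalyse, after their values had been seen.

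Summed over those 11 genes, the level was 1130, 1099 and 1093 CPM in naive, FC and Ext S1 BLA and 1112, 1087 and 1082 CPM in B6 BLA. In CeA it was 724, 739 and 741 CPM in S1 and 718, 704 and 739 CPM in B6. Within a region the sum varied little by strain or condition. Its region difference is no separate result, because 10 of the summed genes had been called higher in BLA. Large terms were St6galnac5, at a mean of 143 CPM in BLA and 20.1 CPM in CeA, and St3gal5, at 148 and 82.7 CPM. St8sia3, left out of the sum, averaged 181 CPM in BLA and 244 CPM in CeA. The 10 calls held with every single library left out and with DESeq2, and limma on FPKM called 9. These fits reuse the same libraries and cannot check a group drawn up after the values were seen. Among S1 libraries alone 7 of the 11 passed, and among B6 libraries alone 6. Scaling to total counts moved the median of all genes to -0.12 on the log2 scale, and the same number of these genes, 10, stayed above 0.

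**Figure D2:**
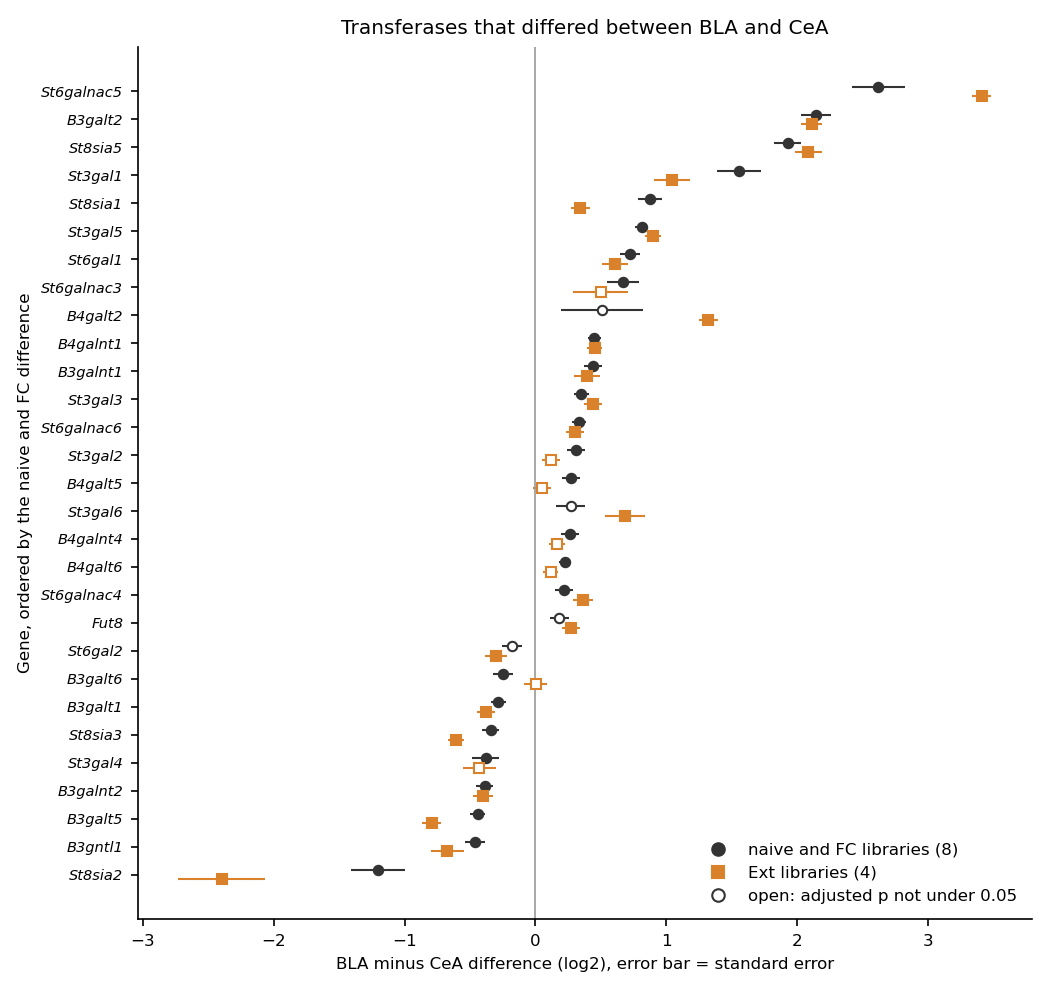
Difference between BLA and CeA on the log2 scale, with its standard error, for the members past the threshold before extinction (8 naive and FC libraries) or after it (4 Ext libraries). Filled markers passed the threshold. St6galnac5, B3galt2 and St8sia5 lie farthest right and St8sia2 farthest left in both sets of libraries.

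In bulk tissue, a different number of cells of a type and a different amount of RNA per cell cannot be told apart. Of 10 markers of BLA excitatory neurons, 9 were higher in BLA and 1 was lower, and their summed level was 2877 to 3099 CPM in BLA and 248 to 496 CPM in CeA. Of 10 markers of central and striatal-type inhibitory neurons, 8 were lower in BLA, and their sum was 1033 to 1275 CPM in BLA and 4497 to 5254 CPM in CeA. The labelled regions thus carried their own markers. All 10 oligodendrocyte markers were higher in BLA, with sums of 3088 to 4879 CPM in BLA and 1739 to 3465 CPM in CeA. Markers of choroid plexus and ependyma summed to 7.77 to 8.70 CPM in BLA and 58.2 to 73.2 CPM in CeA, where 3 of 6 were lower in BLA and Folr1 was at 0 in every BLA library. The part of these cell types in the differences was not tested.

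Outside the ganglioside route, B3galt2, which builds type 1 chains by adding galactose to N-acetylglucosamine, stood out. It had 71.8, 71.3 and 56.3 CPM in naive, FC and Ext S1 BLA and 49.6, 52.1 and 46.5 CPM in B6 BLA. Its CeA libraries had 12.2, 16.7 and 12.5 CPM in S1 and 13.7, 12.1 and 11.4 CPM in B6. It was 4.42-fold higher in BLA (log2 difference 2.15 ± 0.12 SE, adjusted p = 4.96e-06, 4 of 4 pairs). It lies on chromosome 1 at 143640697 to 143649937 (mm10) inside Cdc73, so reads of the host gene could not be told apart without strand.

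St3gal1, which sialylates core 1 O-glycans, was 2.95-fold higher in BLA (log2 difference 1.56 ± 0.17 SE, adjusted p = 0.000146, 4 of 4 pairs). It had 38.5, 33.3 and 26.0 CPM in naive, FC and Ext S1 BLA and 30.3, 24.4 and 18.4 CPM in B6 BLA. The CeA libraries held 8.27, 12.6 and 10.9 CPM in S1 and 9.81, 12 and 10.7 CPM in B6. The regions did not overlap, and the BLA libraries spread over a wider range than those of CeA.

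St6gal1, which caps N-glycan lactosamine with sialic acid, was 1.65-fold higher in BLA (log2 difference 0.72 ± 0.07 SE, adjusted p = 0.000117), with 25.6 to 30.8 CPM in BLA and 15.1 to 19.1 CPM in CeA. Its relative St6gal2 had 31.1 to 43.6 CPM in BLA and 38.7 to 48.1 CPM in CeA and did not pass the threshold before extinction. St6galnac3, which adds a further sialic acid to O-glycans and can act on gangliosides but was not grouped with the 11, was 1.59-fold higher in BLA (log2 difference 0.67 ± 0.12 SE, adjusted p = 0.00249), with 5.62 to 7.80 CPM in BLA and 3.18 to 5.23 CPM in CeA. B3galnt1, the globoside synthase, was 1.36-fold higher in BLA (log2 difference 0.44 ± 0.07 SE, adjusted p = 0.00106), with 44.0 to 51.5 CPM in BLA and 33.1 to 37.4 CPM in CeA. B4galnt4 and St6galnac4 completed the members higher in BLA, at 0.27 and 0.22 on the log2 scale. St6galnac4 lost its call in 6 of 8 fits with 1 library left out, and passed only without naive B6 BLA or naive S1 CeA.

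Of the 8 members lower in BLA, St8sia2, a polysialyltransferase of NCAM, differed most. It had 1.11, 2.01 and 1.16 CPM in naive, FC and Ext S1 BLA and 2.74, 2.03 and 0.79 CPM in B6 BLA. CeA libraries had 4.10, 4.23 and 4.23 CPM in S1 and 4.59, 4.98 and 6.32 CPM in B6. Every BLA library lay below every CeA library, and it was 2.30-fold lower in BLA (log2 difference -1.20 ± 0.21 SE, adjusted p = 0.00183, 4 of 4 pairs). St8sia4, the other polysialyltransferase, had 13.5 to 18.8 CPM in BLA and 13.8 to 20.9 CPM in CeA and did not pass.

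St8sia3, which makes oligosialic acid, was also lower in BLA (log2 difference -0.34 ± 0.06 SE, adjusted p = 0.00293). It was not grouped with the 11 ganglioside enzymes. It had 202, 202 and 175 CPM in naive, FC and Ext S1 BLA and 171, 178 and 155 CPM in B6 BLA. In CeA it had 264, 223 and 261 CPM in S1 and 239, 228 and 248 CPM in B6. The regions did not overlap.

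B3galt5 and B3galt1, relatives of B3galt2 that also build type 1 chains, were lower in BLA where B3galt2 was higher. B3galt5 had 31.9 to 38.1 CPM in BLA and 44.4 to 58.0 CPM in CeA (log2 difference -0.44 ± 0.06 SE, adjusted p = 0.000472). B3galt1 had 39.0 to 52.8 CPM in BLA and 51.7 to 58.9 CPM in CeA (log2 difference -0.28 ± 0.06 SE, adjusted p = 0.0047). B3gntl1 was at -0.46 and B3galnt2, which extends the O-mannose glycan of dystroglycan, at -0.39, with adjusted p of 0.00156 and 0.00165. These last genes overlap Tbcd and Tbce, and their reads could not be told apart without strand.

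St3gal4, which caps lactosamine, had 15.4 to 18.4 CPM in BLA and 18.0 to 25.9 CPM in CeA (log2 difference -0.38 ± 0.10 SE, adjusted p = 0.0165). Its call was lost without naive B6 CeA, FC B6 BLA or FC B6 CeA, at adjusted p of 0.0549, 0.062 and 0.0593. B3galt6, the second galactosyltransferase of the proteoglycan linker, was at -0.25 and passed in the absence of FC B6 BLA or FC S1 CeA, but not when any other single library was left out. It was near 0 in the Ext libraries.

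**Figure D3:**
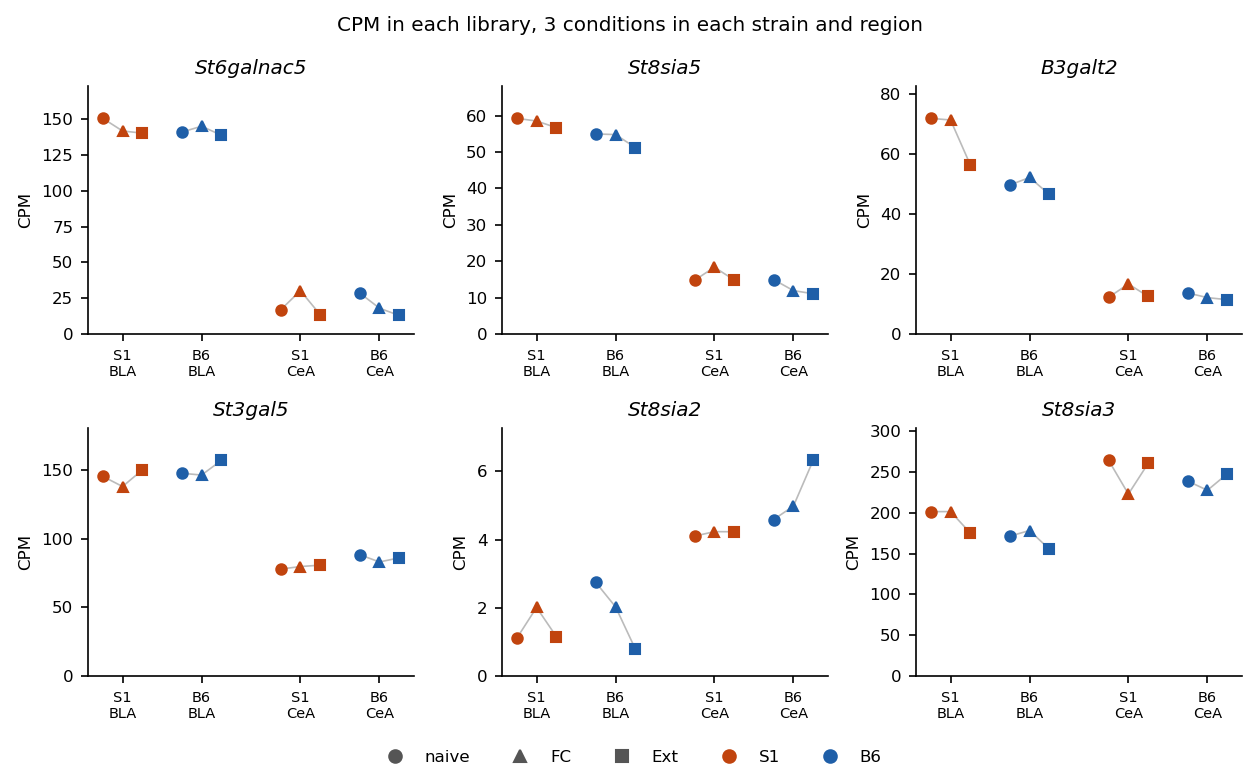
CPM on the vertical axis for 6 members in each of the 12 libraries, with circles for naive, triangles for FC and squares for Ext, in S1 (red) and B6 (blue), and BLA left of CeA. St6galnac5, St8sia5, B3galt2 and St3gal5 were higher in every BLA library, and St8sia2 and St8sia3 in every CeA library.

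The Ext libraries were deposited in a table of their own and gave the region difference again. They were not in the test before extinction, though their levels are given above. There, 15 of 50 members were higher and 7 lower in BLA, where 18.8% of all 15996 genes tested were higher and 17.5% lower. Of the 25 members called before extinction, 24 had the same sign after it, and 18 were called in both sets, 72.0% of the first set and 81.8% of the second. Among all genes called before extinction, 96.0% kept their sign.

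St6galnac5 was 10.7-fold higher in BLA after extinction (log2 difference 3.41 ± 0.07 SE, adjusted p = 0.000503), and B3galt2 and St8sia5 were 4.33-fold and 4.25-fold higher. St8sia2 was 5.27-fold lower in BLA (log2 difference -2.40 ± 0.33 SE, adjusted p = 0.00857). St3gal1 and St3gal5 had log2 differences of 1.04 and 0.90. B4galt2 was called here at 1.32, St3gal6 at 0.69, Fut8 at 0.27 and St6gal2 at -0.30, none of which had passed before extinction. Fut8 had a mean of 20.5 FPKM over all libraries.

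Neuron markers in the Ext libraries followed the regions as before. Those of BLA excitatory neurons summed to 2874 to 2950 CPM in BLA and 258 to 272 CPM in CeA, with 9 of 10 higher and 1 lower in BLA. Those of central and striatal-type inhibitory neurons summed to 1123 to 1554 CPM in BLA and 5345 to 5437 CPM in CeA, with 8 of 10 lower in BLA. Oligodendrocyte markers summed to 4071 to 4254 CPM in BLA and 2417 to 3579 CPM in CeA, with 2 of 10 higher in BLA. Choroid plexus and ependyma markers summed to 8.69 to 13.1 CPM in BLA and 68.5 to 74.5 CPM in CeA, with 1 higher and 2 lower of 4 tested. Within that list Ttr, the main choroid plexus transcript, had 0.84 CPM in S1 BLA and 0.27 CPM in B6 BLA and was at 0 in both CeA libraries, as was Folr1. Blood markers summed to 91.2 to 106 CPM in BLA and 46.2 to 49.96 CPM in CeA, with 2 of 4 tested higher in BLA. Before extinction the blood sums overlapped, at 65.7 to 201 CPM in BLA and 32.3 to 242 CPM in CeA, with 0 of 5 called. In Ext libraries Hbb-bs had 42.7 CPM in S1 BLA, 32.5 CPM in B6 BLA, 0.24 CPM in S1 CeA and 0 in B6 CeA. The part of these tissues in the Ext differences was not tested.

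With 1 residual degree of freedom this fit could not be tried with a library left out. In 1 fit of all 12 libraries with 1 Ext library left out at a time, which takes the spread from the other groups, 8 of the 22 calls held throughout. They were St6galnac5, B3galt2, St8sia5, St3gal5 and B4galnt1, higher in BLA, and St8sia2, B3galt5 and St8sia3, lower in BLA. Of 11 ganglioside members, 7 were higher in BLA in the Ext libraries and 4 in those fits.

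Other genes of the glycan pathways were counted from lists for the same region comparison before extinction. There, 23.2% of all genes tested were higher and 23.4% lower in BLA, and no list was tested as a set. Of 13 further genes of ganglioside and sulfatide metabolism, 8 were higher and 1 lower in BLA. Ugcg, the glucosylceramide synthase that precedes B4galt5 and B4galt6, was 1.5-fold higher (log2 difference 0.59). Ugt8a and Gal3st1, which make galactosylceramide and sulfatide in oligodendrocytes, were higher by 0.66 and 0.60 on the log2 scale. The gene lower in BLA was Galc, which degrades galactosylceramide.

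Among 15 genes of O-GalNAc glycan initiation and core formation, 6 were higher and 3 lower in BLA. Galnt9 was 4.89-fold higher (log2 difference 2.29), Galnt14 had 1.42, and C1galt1, the core 1 synthase that makes the acceptor of St3gal1, had 1.07. Of 11 N-glycan processing genes, 5 were higher, with Man1a at 1.28, and 1 was lower. Of 13 genes of O-mannose glycans, 5 were higher, with Large at 1.25, and 1 was lower. Of 13 proteoglycan linker and chain genes, 4 were higher and 4 lower.

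Of 24 genes listed under sugar nucleotide supply, 4 were higher and 2 lower in BLA. Npl, a lyase that breaks down sialic acid, was at -0.71. Of 10 sialidases and other glycosidases, 2 were higher and 3 lower, and Neu1, the lysosomal sialidase, was at 0.57. Of 3 genes of the HNK-1 epitope, B3gat1 and Chst10 were lower in BLA at -0.42 and -0.55. Of 14 carriers and lectins, 3 were higher and 1 lower, and Lgals1 was at 1.89. Of 9 genes of O-fucose and fringe glycans, only Lfng was called, at -0.30.

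Strain was compared as S1 minus B6 in the 8 naive and FC libraries. Of the 50 tested members, 3 were higher and 8 lower in S1, where 12.4% of all genes tested were higher and 10.4% lower. The median log2 difference was -0.03 over the members and -0.0011 over all genes. Limma on log2 of FPKM plus 1 called 1 member higher and 8 lower, on a scale where the median over all genes was -0.03. Of the 11 calls, 6 held with any 1 library left out, all of them lower in S1. They were Fut10, St6galnac2, B3gnt3, B3galt6, B4galt3 and B4galt4.

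Fut10, a fucosyltransferase related by sequence to the enzymes of Lewis structures, showed the clearest strain difference. It lies on chromosome 8 at 31187331 to 31261924 (mm10). In BLA it had 2.79, 2.84 and 2.68 CPM in naive, FC and Ext S1 and 9.21, 10.4 and 9.52 CPM in B6. Its CeA libraries had 2.68, 2.50 and 1.90 CPM in S1 and 9.39, 8.66 and 9.57 CPM in B6. The strains did not overlap, and neither region nor condition moved the gene much within a strain. It was 3.47-fold lower in S1 before extinction (log2 difference -1.79 ± 0.10 SE, adjusted p = 3.20e-05, 4 of 4 pairs).

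Its counts were shared among 4 of its 5 annotated transcripts in different ways from library to library. NM_134161, which like NM_001286424 ends upstream of the rest, had 16, 14 and 40 counts in naive, FC and Ext S1 BLA and 138, 171 and 150 counts in B6 BLA. The CeA libraries held 26, 24 and 14 counts in S1 and 126, 90 and 100 counts in B6. NM_001286424 was at 0 in all 12 libraries. The effect of strain-specific sequence on the mapping of S1 reads to the mm10 reference was not measured, for Fut10 or any other strain difference here.

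St6galnac2, which sialylates core 1 O-glycans, was 2.18-fold lower in S1 (log2 difference -1.12 ± 0.14 SE, adjusted p = 0.00151, 4 of 4 pairs). In BLA it had 2.01, 2.71 and 3.03 CPM in naive, FC and Ext S1 and 4.97, 4.85 and 5.08 CPM in B6. CeA libraries had 1.52, 2.07 and 1.97 CPM in S1 and 3.50, 4.60 and 3.82 CPM in B6. The strains did not overlap.

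B3gnt3, which extends core 1 O-glycans, was 3.94-fold lower in S1 (log2 difference -1.98 ± 0.36 SE, adjusted p = 0.00828), but at a level under 1 CPM outside the naming rule. It had 0.09 to 0.26 CPM in the 6 S1 libraries and 0.69 to 1.03 CPM in the 6 B6 libraries, which did not overlap. B4galt3 and B4galt4, which add galactose to lactosamine chains, had log2 differences of -0.42 ± 0.06 SE and -0.36 ± 0.06 SE, with adjusted p of 0.00456 and 0.00655. B4galt3 had 36.7 to 45.7 CPM in S1 and 50.5 to 63.6 CPM in B6, and B4galt4 had 19.0 to 22.4 CPM in S1 and 23.1 to 26.8 CPM in B6. Neither gene overlapped between strains.

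B3galt6 was 1.35-fold lower in S1 (log2 difference -0.44 ± 0.08 SE, adjusted p = 0.00822), with 12.2 to 17 CPM in S1 and 17.1 to 21.1 CPM in B6. B4galt7, the first galactosyltransferase of the same linker, had 20.8 to 25.6 CPM in S1 and 22.1 to 25.7 CPM in B6 and did not pass. The strains nearly met for B3galt6 and overlapped for B4galt7.

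**Figure D4:**
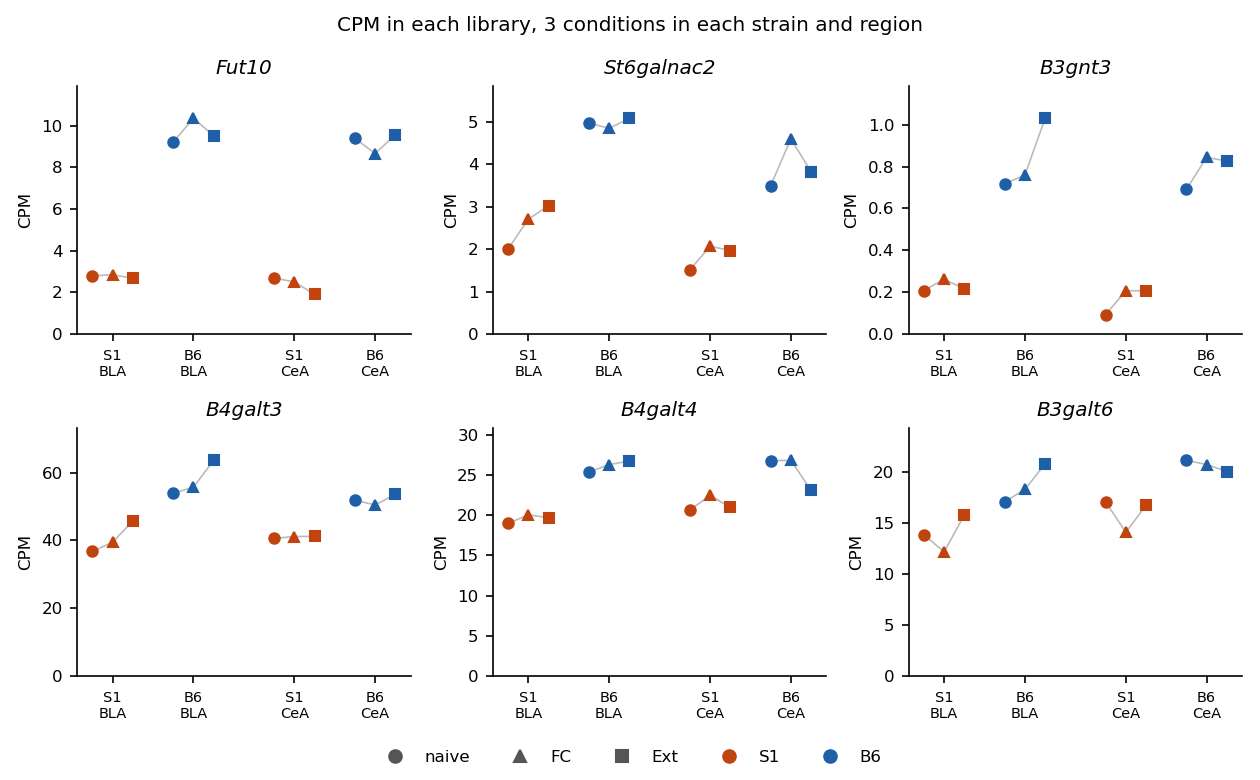
CPM on the vertical axis for the 6 members whose strain difference held with any 1 library left out, with circles for naive, triangles for FC and squares for Ext. In each region the S1 points (red) stand left of the B6 points (blue) and lie below them.

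The other 5 calls were small and depended on the library set. St8sia1 was higher in S1 at 0.37 on the log2 scale (adjusted p = 0.0259), with 28.5 to 56.6 CPM in S1 and 21.3 to 49.5 CPM in B6. Fut9, which makes the Lewis x structure of neurons, was at 0.22 (adjusted p = 0.0302), with 65.4 to 105 CPM in S1 and 62.5 to 85.8 CPM in B6. B4galt6 was at 0.19 (adjusted p = 0.0223), with 186 to 247 CPM in S1 and 178 to 217 CPM in B6. St3gal6 was lower at -0.39 (adjusted p = 0.0402) and B4galnt1 at -0.21 (adjusted p = 0.0239). Without naive B6 BLA all 5 passed, and without naive S1 CeA St8sia1 did. With any other library left out none of them passed, at adjusted p of 0.0509 to 0.112. When the trend of the strain difference with transcript length was removed, Fut9 turned to -0.14, St8sia1 was at 0.09 and B4galt6 at 0.03 on the log2 scale. In a fit with matched libraries as a block, chosen after seeing the data, St3gal6 lost its call (adjusted p = 0.0524).

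Markers of other cell types also differed by strain. Of 10 oligodendrocyte markers 8 were lower in S1, with sums of 1739 to 3366 CPM in S1 and 3118 to 4879 CPM in B6 before extinction. Of 10 microglia markers 7 were lower in S1, with sums of 427 to 446 CPM in S1 and 550 to 614 CPM in B6. Of 10 astrocyte markers 6 were lower, with sums of 4087 to 4860 CPM in S1 and 4344 to 4816 CPM in B6. Of 10 endothelial and mural markers 3 were lower, of 6 oligodendrocyte precursor markers 3, and of 5 blood markers 2. Of 10 markers of central and striatal-type inhibitory neurons 2 were higher in S1 and 0 lower. None of 10 markers of BLA excitatory neurons or of 6 of choroid plexus and ependyma was called. None of these markers was at 0 in a whole strain, and their part in the strain differences was not tested.

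Over all 6 matched pairs of libraries, 5 members were higher and 11 lower in S1 in every pair, where 14.2% and 13.8% of the genes tested behaved so. Between regions, 19 members were higher and 8 lower in BLA in every pair, where 23.2% and 24.4% of genes behaved so. With CPM on total counts these were 15 and 11 members, where 17.5% and 32.9% of genes behaved so. Among members that did not pass the strain test, St3gal5, B4galt7, B3gnt5 and St6galnac4 were lower in S1 in all 6 pairs, and B3galt1, Fut7 and Fut11 were higher.

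In the Ext libraries Fut10 alone was called for strain, at -2.08 ± 0.18 SE on the log2 scale (adjusted p = 0.0263, 2 of 2 pairs), where 0.638% of all genes tested were higher and 1.0% lower in S1. All 11 members called before extinction kept their sign, as did 92.0% of all genes called then. DESeq2 and limma also called B4galt3, at -0.42 and an adjusted p of 0.0156 with DESeq2. The fit of all 12 libraries called Fut10, B4galt3 and St6galnac2.

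The pathway lists were also counted by strain before extinction, where 12.4% of all genes tested were higher and 10.4% lower in S1. Of the 13 further ganglioside and sulfatide genes, 6 were lower in S1 and none higher. Among them Gal3st1 was at -0.53, Gltp at -0.45 and Ugt8a at -0.43 on the log2 scale. Ugt8a and Gal3st1 are oligodendrocyte genes, and oligodendrocyte markers were lower in S1 as given above. Of 11 N-glycan genes 4 were higher and 1 lower, and Mgat5, which makes the branch that carries long lactosamine chains, was 1.98-fold higher (log2 difference 0.98). Of 15 O-GalNAc genes 3 were higher and 1 lower, with C1galt1 at 0.68 and Gcnt4 at -0.56. Of 13 linker genes 3 were higher, with Xylt1 at 0.97, and none was lower.

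Of 14 carriers and lectins, 1 was higher and 4 were lower in S1, with Mag, the myelin-associated lectin for gangliosides, at -0.71. Of 24 sugar nucleotide genes 2 were higher and 1 lower, and of 13 O-mannose genes 1 was higher and 1 lower. In the HNK-1 and O-fucose lists B3gat2 and Pofut1 were higher, at 0.39 and 0.24. None of the 10 sialidases and other glycosidases passed.

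Conditioning (FC minus naive) changed no member in edgeR's test, which called 0.0% of all genes. At an unadjusted p under 0.05 there were 2 members and 571 genes. Fut9 had the smallest p among members, with a log2 difference of -0.30 ± 0.06 SE and an adjusted p of 0.893. In FC libraries it had 84.3 CPM (S1 BLA), 67.6 CPM (B6 BLA), 76.4 CPM (S1 CeA) and 69.8 CPM (B6 CeA). In naive libraries it had 105 CPM (S1 BLA), 85.8 CPM (B6 BLA), 92.3 CPM (S1 CeA) and 84.5 CPM (B6 CeA). All 4 pairs were lower after conditioning, and DESeq2 called the gene at an adjusted p of 0.0114. B3galt1 and St6galnac2 came next, at -0.14 and 0.30, with edgeR adjusted p of 0.999 for each.

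B4galt2, which adds galactose to lactosamine chains, differed between FC and naive libraries in opposite directions in the regions. In BLA it had 88.7, 48.8 and 91.8 CPM in naive, FC and Ext S1 and 91.2, 50.1 and 89.2 CPM in B6. In CeA it had 35.6, 59.1 and 38.1 CPM in S1 and 34.3, 66.4 and 35.2 CPM in B6. The FC libraries stood apart from both other conditions in each strain, below them in BLA and above them in CeA. Naive and Ext libraries lay within 3.11 CPM of each other in each strain and region. No group had a replicate, so whether conditioning itself caused the difference was not tested.

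The ratio of FC to naive levels was 3.27-fold lower in BLA than in CeA (log2 difference of changes -1.71 ± 0.12 SE, adjusted p = 0.00956). Only 3 of the 16274 genes were called in this test, 0.00614% higher and 0.0123% lower. The others were Pafah1b1 at -1.54 and Hist2h2aa2 at 7.80, named because the count was small. Both also shifted in Ext libraries. Pafah1b1 had 225 CPM in Ext S1 BLA against 716 CPM in Ext B6 BLA. Hist2h2aa2 had 0.0173 to 0.0422 CPM in the FC and Ext CeA libraries, against 6.15 CPM (S1) and 11.3 CPM (B6) in naive CeA. In BLA libraries alone B4galt2 was lower by 0.87 in FC than in naive libraries (adjusted p = 0.00847). In CeA libraries alone its difference was 0.84 and did not pass the threshold (adjusted p = 0.112). The interaction lost its call without naive B6 CeA, FC B6 BLA, naive S1 BLA or FC S1 BLA, at adjusted p of 0.0942, 0.186, 0.0552 and 0.0593. Its size stayed between -1.78 and -1.63.

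The gene lies on chromosome 4 at 117873000 to 117883476 (mm10) and has 3 annotated transcripts, which share the start whose promoter is printed above. NM_017377 had 3708, 814 and 5366 counts in naive, FC and Ext S1 BLA and 4636, 1608 and 5188 counts in B6 BLA. The non-coding transcript NR_045570 had 687 counts in FC S1 BLA and 1161 counts in FC B6 BLA, against at most 134 counts in each other library. In CeA NM_017377 had 1019, 3132 and 1339 counts in S1 and 1726, 3136 and 1096 counts in B6. The third transcript, NM_001253381, had 0, 734 and 182 counts in naive, FC and Ext S1 BLA and 182, 0 and 0 counts in B6 BLA. In CeA it had 501, 0 and 863 counts in S1 and 0, 7 and 718 counts in B6. The division among transcripts thus shifted in other libraries too, while NR_045570 was high in the FC libraries of BLA.

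**Figure D5:**
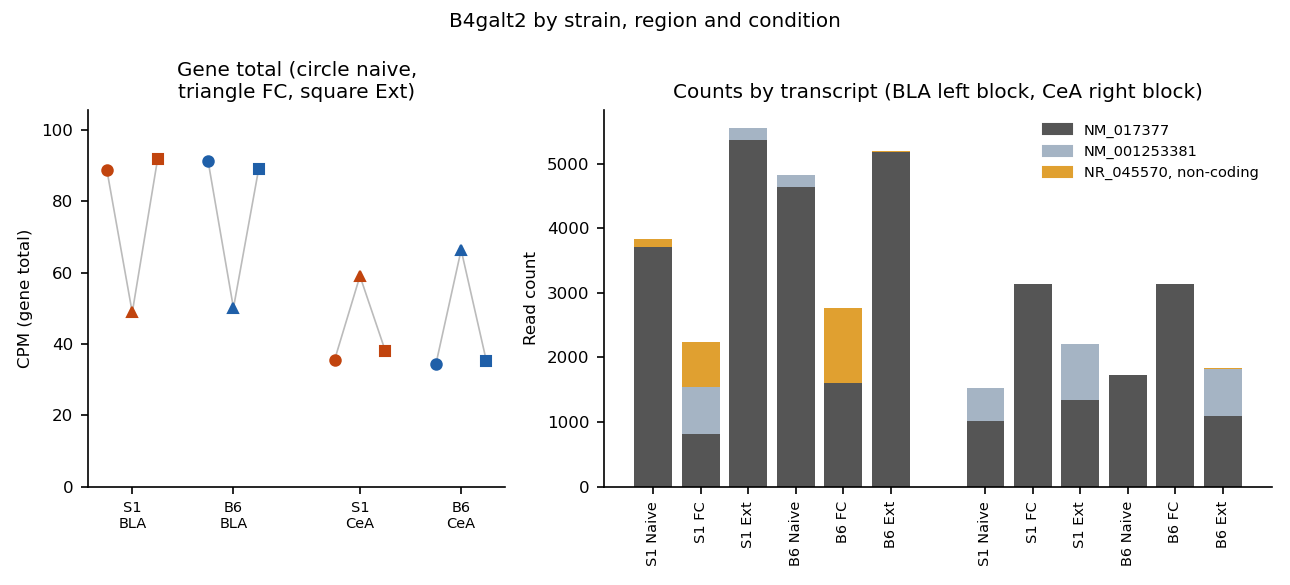
Left, CPM of B4galt2 in S1 (red) and B6 (blue) BLA and CeA libraries, with circles for naive, triangles for FC and squares for Ext. Right, read counts of its 3 transcripts stacked by library, where NR_045570 takes a large share in the 2 FC libraries of BLA alone.

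No other member passed a test of an interaction. For strain by region, 2 members had an unadjusted p under 0.05 in edgeR's test and 0 an adjusted p under 0.05, where 0.0307% of genes did. St3gal4 had the smallest p, at 0.46 ± 0.13 SE (adjusted p = 0.483), with 16.4 to 18.4 CPM in BLA of either strain, 19.4 to 19.9 CPM in S1 CeA and 25.3 to 25.9 CPM in B6 CeA before extinction. For strain by conditioning, 1 member, St8sia1, had an unadjusted p under 0.05 and 0 passed, where 0.0% of genes did. For the change of the strain gap at extinction over 12 libraries, 0 members had an unadjusted p under 0.05 and 0.0% of 16523 genes passed. DESeq2 called 0 members in each of these 3 tests.

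In all, 35 of the 50 tested members, 70.0%, were called in at least 1 of 9 comparisons, as were 63.7% of the 15864 genes tested in all of them, and 15 members were called in none. Of those 15, 7 had a mean FPKM over 1. B3gnt2, which builds long lactosamine chains, averaged 13.5 FPKM with a range of 12.2 to 15.7, and B4galt7 averaged 9.95 FPKM with a range of 8.73 to 10.9. Fut11, a relative of Fut10, averaged 4.90 FPKM, with 14.9 to 19.0 CPM in S1 and 14.6 to 16.8 CPM in B6. B3galt4 and St8sia4 averaged 3.34 and 3.22 FPKM, and B4galt1 and B3gnt9 averaged 1.29 and 1.19 FPKM. B3gnt7, which extends keratan sulfate chains, averaged 0.551 FPKM, and the remaining 7 lay under 1 CPM.

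Of the 56 members, 22 had more than 1 annotated transcript and 102 transcripts were listed in all. B3galt5 was divided between the starts whose promoters are printed above. The transcript from the upstream start, NM_001122993, had 333, 37 and 0 counts in naive, FC and Ext S1 BLA and 1364, 21 and 1858 counts in B6 BLA. NM_033149, from the downstream start, had 1167, 1500 and 1946 counts in S1 BLA and 650, 1998 and 0 counts in B6 BLA. In CeA the upstream transcript had 8, 9 and 22 counts in S1 and 12, 8 and 320 counts in B6.

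The upstream transcript therefore took from none to all of the gene's counts in BLA libraries and 0.316% to 10.6% in CeA libraries. The strains differed in this from condition to condition, and with 1 library a group these shares have no replicate check. Between the starts the transcripts share all of the downstream locus, and how reads in shared exons were assigned is not given in the sources used here.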

How the data were processed

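Values for the naive and FC libraries were deposited together, and those of the Ext libraries apart. The submitters' processing notes name StringTie, and the build is mm10, per the file headers. No source used here gives the aligner, the software versions or the use of strand. Raw counts of reads, in whole numbers per transcript, were deposited without normalization. The authors scaled the gene values in FPKM for length and depth. Transcript lengths in bases were also deposited, per the file headers. Counts were summed per gene over 36779 transcripts, because 1 gene-level count column could be matched to no sample and was not used.

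Tests used edgeR 4.0.16 under R 4.3.3 (quasi-likelihood F test, TMM scaling, filterByExpr, Benjamini-Hochberg adjustment over all genes tested, threshold 0.05). Strain, region and conditioning came from an additive model of 8 libraries with 4 residual degrees of freedom. Each interaction left 3, the 4 Ext libraries alone left 1, and the change of the strain gap over 12 libraries left 5. Standard errors (SE) came from the log2 difference and the F statistic. Alternatives were limma 3.58.1 on log2 FPKM, DESeq2 1.42.0, other scaling and filters, subsets, matched libraries as a block, and each library left out. The edgeR fit for strain before extinction was tested on simulated data, and the other fits were not.

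Every member was accounted for. Values in every library were given for members past the threshold (at most 10 per direction, mean of at least 1 CPM), or ranges where these say enough. Where none passed, the 3 smallest p-values were named, and the 5 members with the highest mean FPKM were added. B3gnt3, Fut8 and members named beside a relative fall outside this rule. Up to 4 genes were named per pathway list, and some are not reported here. Members and lists were chosen with earlier results of these data known. Total counts were 42224899 to 61695302 per library.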

Additional observations from a re-analysis of the deposited data

Results flagged for a closer look

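B4galt2 met a test of a difference between groups. Its FC minus naive difference was not the same in BLA and CeA, by -1.71 on the log2 scale (SE 0.12, edgeR adjusted p = 0.00956). It was lower after conditioning in both BLA pairs and higher in both CeA pairs. In the Ext libraries it stood near the naive level again, in tables that were deposited separately. The non-coding transcript NR_045570 was high in both FC BLA libraries. Whether the division of reads among transcripts plays a part in the gene's total was not tested.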

How the results depend on the processing

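No paired analysis was possible because every group was 1 library with the number 1, so that replicate numbers pair no libraries. Libraries alike in the 2 other factors could be paired, and a fit with these as a block, chosen after seeing the data, called 4 members higher and 7 lower for strain, 17 higher and 8 lower for region and 0 for conditioning before extinction. Of the named genes it lost St3gal6 by strain alone. For the named genes, 704 of 828 values under another setting kept their direction and side of the threshold, 118 lost the call, 1 gained it, 4 moved beyond their standard error without a test, and 1 turned, Fut9 by strain at -0.14 with the transcript length trend removed.

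Members called for strain before extinction were 5 higher and 8 lower with DESeq2, where 2348 of 16274 genes were higher and 1876 lower. They were 1 higher with limma at either pseudocount (1 or 0.1) and 1 higher and 5 lower in BLA libraries alone. Naive libraries alone gave 0 higher and 1 lower, and FC libraries alone 4 lower. Shares of all genes under limma, in subsets and with libraries left out are not given here, so those counts show only how the calls moved. For region before extinction they were 5 lower in S1 libraries alone, and 11 higher and 4 lower in B6 libraries alone. Conditioning gave 1 lower with DESeq2, where 16 of 16274 genes were higher and 5 lower, and 1 lower in BLA libraries alone. Strain in Ext libraries gave 2 lower with DESeq2 and with limma at either pseudocount, and 3 lower in 1 fit of all 12 libraries. With DESeq2, 247 of 15996 genes were higher and 353 lower there.

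With 1 library left out at a time, the counts ranged from 0 to 5 higher and 6 to 8 lower for strain, 16 to 18 higher and 6 to 9 lower for region, and 0 to 1 lower for the interaction of region with conditioning. In Ext libraries they were 5 to 6 higher and 3 to 4 lower for region. In the Ext region test 14 of the 22 calls were lost in at least 1 such fit, and the cause was not tested. Subsets of 4 libraries had fewer samples.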
